A study of Mus musculus with 30 samples.

Results

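Chemically induced pluripotent stem cells (CiPSC) are made from somatic cells with small molecules and without introduced genes. For 3 cell types the array series held a CiPSC line together with the kind of cell it was made from: mouse neonatal fibroblasts (MNF), mouse adult lung fibroblasts (MAF) and adipose-derived stem cells (ADSC). These 6 of the 30 samples form 3 matched pairs and are described here as differences on the log2 scale, line minus its own starting cells. All 6 belong to the second of the series' 5 sets of samples, whose values the authors normalized together, along with 3 other pluripotent samples that serve as references: CiPS45, a CiPSC line from mouse embryonic fibroblasts (MEF), OSKM iPS2, a line made from MEF with transcription factors, and ESC2, embryonic stem cells of the line TT2.

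The starting cells were untreated cultures in serum-containing DMEM, MNF from neonatal and MAF and ADSC from adult mice. The line MNF CiPS1 was made with the combination coded VCT6FMDBR+Z, MAF CiPS3 with VC6TFDM+Z and ADSC CiPS2 with VC6TFMPS+Z. The labels do not spell these letters out. Because each origin came with its own combination, the effects of origin and combination cannot be told apart. The lines grew on growth-arrested MEF in ESC medium and the starting cells did not, so culture and cell state cannot be told apart either. The labels of ADSC CiPS2 disagree: its title and cell line name ADSC, while its source names adult lung fibroblasts. It was paired with ADSC by its title, and the shared change is also given without that pair. Strain, genotype and number of animals are not stated in the labels. The design text speaks of 3 replicates for each sample, which the table gives as a single value per probe, so array-to-array spread is not visible. The p-values measure the spread between 3 pairs of different origin. No source used here says if replicates came from separate cultures.

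Pluripotent cells of the naive kind are held by a network of transcription factors around Oct4 (Pou5f1), Nanog, Esrrb, Klf4 and Tfcp2l1. Fibroblasts and stromal cells lack this network and make large amounts of matrix, contractile and adhesion proteins, which are lost when cells take on the epithelial character of stem cell colonies. Stromal cells from different parts of the body also keep a positional code of Hox and Tbx genes, which records where in the embryo their ancestors lay.

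The set held 15437 probes, all with a value in every sample of the set, and gave 14112 genes or unnamed probes after 1 probe per gene had been taken. Median intensity per sample lay between 356.7 and 358.8 and the quantiles of the 9 samples differed by at most 3.31%. Between 23.7 and 23.8% of the values in each sample were under 100, a low level on this scale, for which detection calls were not used, and up to 13 probes per sample lay above 60000, near the top of the scale. Sox2, Myc and Col1a1 had no probe in this set. In bulk RNA of this kind, fewer cells of a type and less RNA per cell cannot be told apart. Intensities are given in the order MNF, MAF, ADSC throughout, for starting cells and for lines, and intensities of different genes are not comparable with each other.

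In the paired fit 3727 genes (26.4% of 14112) changed at least 2-fold at a limma adjusted p under 0.05. Of these, 1985 (14.1%) were higher in the lines and 1742 (12.3%) were lower. All 3727 had the same direction in the 3 pairs, which a call on 3 pairs at this cutoff all but requires. The median difference over all genes was 0.04 on the log2 scale. With the ADSC pair left out 1021 genes rose and 931 fell, without the MAF pair 1297 and 1237, and without the MNF pair 1124 and 1172. The fit without the origin as a block, which ignores the pairing, gave 1177 rises and 1065 falls.

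The largest shared rises were those of genes of the naive state and of the early embryo. Fbxo15, an F-box protein gene used as a reporter of the pluripotent state, read 31.2, 62.4 and 52.8 in the starting cells and 19743, 26380 and 44530 in the lines. Every line was far above every starting population, and the mean log2 difference was 9.25 ± 0.50 (SD, n = 3 pairs; limma adjusted p = 0.00082). Esrrb, an orphan nuclear receptor of the naive network, read 49.7, 44.9 and 57.4 before and 31719, 33299 and 12397 after, a difference of 8.87 ± 0.97 (adjusted p = 0.0012). The ADSC line was the lowest of the lines for Esrrb and also for Fgf4, a fibroblast growth factor secreted by pluripotent cells, which read 94.7, 72.9 and 68.8 in starting cells and 38520, 45641 and 21732 in lines (8.75 ± 0.50, adjusted p = 0.00082). Tfcp2l1, another naive factor, was again lowest in the ADSC line, with 20364, 20272 and 7503 against 29.3, 42.9 and 56.4 in the starting cells (8.46 ± 1.25). A second Tfcp2l1 probe stayed below 100 in all 6 samples and showed no rise. Zfp42, the zinc finger protein Rex1, went from 35.5, 22.7 and 30.1 to 2819.8, 5068 and 7540.3 (7.36 ± 0.91), and here the MNF line was the lowest. Ooep, a maternal factor of oocytes and cleavage embryos, rose by a nearly equal amount in each pair, 8.35, 8.79 and 8.60, from 78.5, 60.5 and 42.9 to 25544, 26807 and 16667.

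The 4 other genes among the 10 largest rises were Qprt, an enzyme of NAD synthesis, Rhox5, a homeobox gene of the reproductive lineage on the X chromosome, Mageb16, a melanoma antigen family gene on the same chromosome, and Misp3. Their mean differences were 7.45 ± 0.45, 7.30 ± 0.90, 7.21 ± 0.96 and 7.01 ± 0.95 (SD, n = 3 pairs), and the starting cells read under 100 for each of them except Rhox5 in ADSC (194). Since the low side of these differences lies under 100, the size of each fold depends on how low values are treated. With values under 100 set to 100, an alternative chosen after seeing the data, the 10 rises lay between 4.64 and 8.40 and all 10 were still called, and 7 of the 10 largest falls were called, at -7.27 to -5.75 for the 10.

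**Figure D1:**
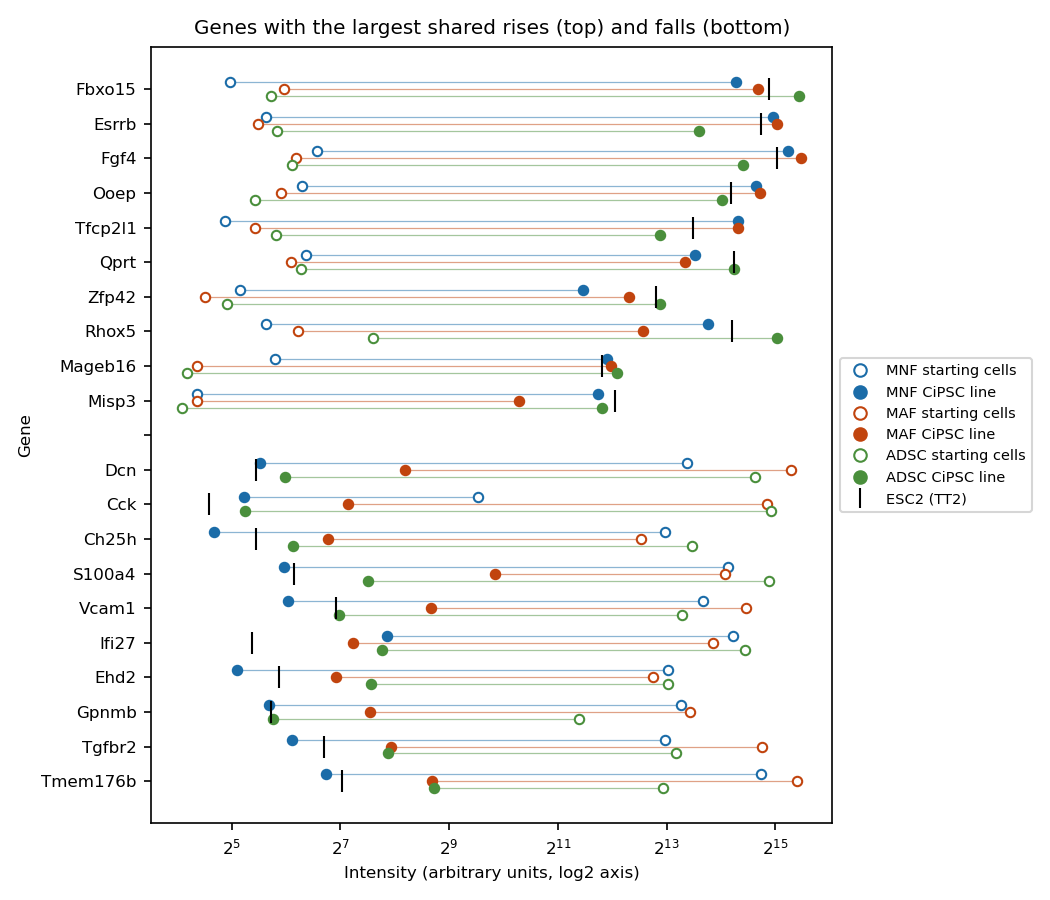
Intensity (log2 axis) of the 10 genes with the largest mean rise and the 10 with the largest mean fall, with an open circle for each starting population, a filled circle for its CiPSC line and a vertical tick for the embryonic stem cells ESC2. In every row the 3 open and the 3 filled circles do not overlap, from Fbxo15 with a mean difference of 9.25 to Dcn with -7.87.

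Of these 10 genes 2 carried the octamer, the sequence bound by Oct-family factors, in the 250 bases before their RefSeq start (assembly GRCm38.p6). As members of the strongest rise that hold the match, their windows are printed with the match in capitals, 5′ to 3′ on the gene's strand. The Zfp42 window is chr8:43307010-43307259 and the Mageb16 window chrX:79671436-79671685, both on the minus strand, and in both the match begins 186 bases before the start.
Zfp42: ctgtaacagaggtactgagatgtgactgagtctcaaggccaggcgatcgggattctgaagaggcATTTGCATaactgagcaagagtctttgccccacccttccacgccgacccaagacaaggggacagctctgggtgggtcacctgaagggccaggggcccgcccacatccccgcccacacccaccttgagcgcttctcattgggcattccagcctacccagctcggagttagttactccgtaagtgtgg
Mageb16: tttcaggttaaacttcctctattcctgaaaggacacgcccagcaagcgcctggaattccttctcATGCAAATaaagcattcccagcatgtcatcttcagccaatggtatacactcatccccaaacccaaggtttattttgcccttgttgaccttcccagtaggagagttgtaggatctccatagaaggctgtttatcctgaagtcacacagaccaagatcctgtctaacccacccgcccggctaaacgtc
The search covered both strands for ATGCAAAT, that is also ATTTGCAT, and 9 of the 10 largest rises had a window. Among windows of all shared rises 1.20% held the octamer, against 1.51% of windows of shared falls and 1.38% of windows of all genes tested. The octamer was thus no more frequent among the risen genes. The site TCAAGGTCA (reverse complement TGACCTTGA), which Esrrb-type receptors bind, was in 0.468% of windows of risen genes, 0.0581% of fallen genes and 0.236% of all genes tested. It occurred in 9 of 1924 windows of risen genes and in none of the windows of the 10 largest rises. These are matches of letters only.

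Across the naive pluripotency list, 15 of 17 measured members rose, none fell and 2 did not pass the test, against 14.1% of all genes. The list's median difference was 3.54, and 16 of 17 members had all 3 lines above all 3 starting populations, which 18.7% of all genes did. Pou5f1, the gene of Oct4, read 149, 96.6 and 437 in the starting cells and 767, 598 and 1314 in the lines. The lines were all above the starting cells and near ESC2 (1166), and the difference was 2.19 ± 0.54 (adjusted p = 0.0073), a call lost without the block. Nanog, a homeodomain factor of the same network, read 106, 93.2 and 99.0 in the starting cells and 139.5, 845 and 1420 in the lines, against 4667 in CiPS45 and 5349.9 in ESC2. The MNF line was therefore close to its starting cells, with a difference of 0.40, while the MAF and ADSC lines rose by 3.18 and 3.84. The mean change was 2.48 ± 1.82 (adjusted p = 0.042), a call lost without the MAF pair, without the ADSC pair and without the block. The other line with a low Nanog reading was OSKM iPS2, at 285. Klf4, a zinc finger factor that fibroblasts also express, read 319, 705 and 1150.3 before and 2322, 5289 and 1872 after (2.16 ± 1.26, adjusted p = 0.027). In the ADSC pair it differed by 0.70, and ADSC was the highest of the starting populations. Its call was lost without the MNF pair, without the MAF pair and without the block. Tbx3, a T-box factor of naive cells that lung mesenchyme expresses too, read 1855, 4887 and 3104 in starting cells and 6283, 4615 and 2569 in lines and did not pass the test, nor did Gdf3 (0.93 ± 0.21), a growth factor of the Nodal family.

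Of the genes of germ cells and early embryos, 11 of 13 rose (14.1% of all genes) and none fell, with a list median of 4.60. Of the 13 members, 9 read under 100 in all 3 starting populations, and none did so in all 3 lines. Taf7l, a germ cell variant of a general transcription factor subunit, read 83.7, 18.0 and 28.9 in the starting cells and 943, 1285 and 6354 in the lines. The ADSC line was clearly the highest, also above ESC2 (1236), and the mean difference was 5.81 ± 2.17 (adjusted p = 0.0055). Ddx4, the germ cell helicase Vasa, read 347, 1439.6 and 1094 in the lines against 306, 264 and 203 in the starting cells, so that the MNF pair hardly differed (0.18), and it did not pass the test. Slc25a31, a testis-type ADP/ATP carrier, was the other member not called, with differences of -0.73, 0.75 and 2.05.

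Among regulators of DNA methylation 5 of 10 members rose (14.1% of all genes) and none fell, at a list median of 1.17. Tet1, a dioxygenase that oxidises methylcytosine, read 28.2, 38.5 and 19.3 before and 2029, 2282 and 1385 after, with almost the same difference in each pair (6.17, 5.89 and 6.16; adjusted p = 0.0012). Uhrf1, which directs the maintenance methyltransferase to newly replicated DNA, rose by 2.63 ± 0.14 and Dnmt3l, a cofactor of the de novo enzymes, by 2.81 ± 0.28. The de novo methyltransferase Dnmt3b differed by 2.20, 4.04 and 5.55, the smallest value being that of MNF, which started at 318 against 61.4 and 44.9 in the other starting cells. Dnmt3a, its close relative, did not pass the test and differed by -0.95, 0.20 and 0.80.

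Polycomb subunits rose in 8 of 12 cases (14.1% of all genes) and fell in 1 (12.3% of all genes), with a list median of 1.77. Cbx7, the chromobox subunit of stem cells, read 264, 621 and 229.6 in starting cells and 8278, 8909 and 9353 in lines (4.72 ± 0.78, adjusted p = 0.0018). Mtf2 and Jarid2, which recruit the H3K27 methyltransferase complex, rose by 4.27 ± 0.28 and 2.64 ± 0.65, and Suz12, a core subunit, by 2.68 ± 0.64. In Suz12 and Mtf2 the MNF line was well below the others, with 3631, 12796 and 7149 and 4701, 14284 and 11438, and MNF itself was the lowest of the starting cells, with 485, 1423 and 1840.3 and 302, 640.2 and 549.6. The member that fell was Bmi1 (-1.96 ± 1.34, adjusted p = 0.04), a ring finger subunit of the other polycomb complex, a call lost without any 1 of the pairs and without the block. It is named after its values were seen, as are Gdf3, Ddx4, Snai1, Eln, Cdk1 and Cdc6.

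Epithelial junction genes rose in 11 of 15 cases (14.1% of all genes) and none fell. Epcam, an adhesion molecule of epithelia and stem cells, read 908, 291 and 1575 before and 13546, 17931 and 13229 after (4.30 ± 1.48, adjusted p = 0.0053), so the lines were similar and the size of each rise followed the starting level. Cldn6, an embryonic claudin, rose by 4.74, 5.14 and 4.22. St14, the membrane protease matriptase, and Tjp3, a tight junction scaffold, rose less in the ADSC pair than in the others, by 5.37, 5.02 and 1.75 and 4.16, 5.35 and 2.25, the ADSC line reading 517 and 458. The list's median was 4.33 in the MAF pair, 2.72 in the MNF pair and 1.75 in the ADSC pair. These pair medians have 1 sample a side and no test.

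Replication and mitosis genes rose in 19 of 22 cases (14.1% of all genes) and none fell, with a list median of 2.24. Mybl2, a transcription factor of cycling cells, read 78.5, 90.3 and 116 in starting cells and 1277, 835 and 1548 in lines (3.66 ± 0.41, adjusted p = 0.0019). Mcm2 of the replicative helicase, Cdt1, which loads it, and Bub1, a checkpoint kinase, rose by 3.0 ± 0.45, 2.76 ± 0.08 and 3.03 ± 0.73. Mki67, the proliferation antigen, did not pass the test and differed by 0.85, 1.30 and -1.0 at the brighter of its probes. A dimmer second Mki67 probe read 160, 254 and 235 in starting cells and 473, 124 and 106 in lines. The direction in the MAF pair thus depended on the probe. The other members not called, Cdk1 and Cdc6, read under 100 in all 6 samples.

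**Figure D2:**
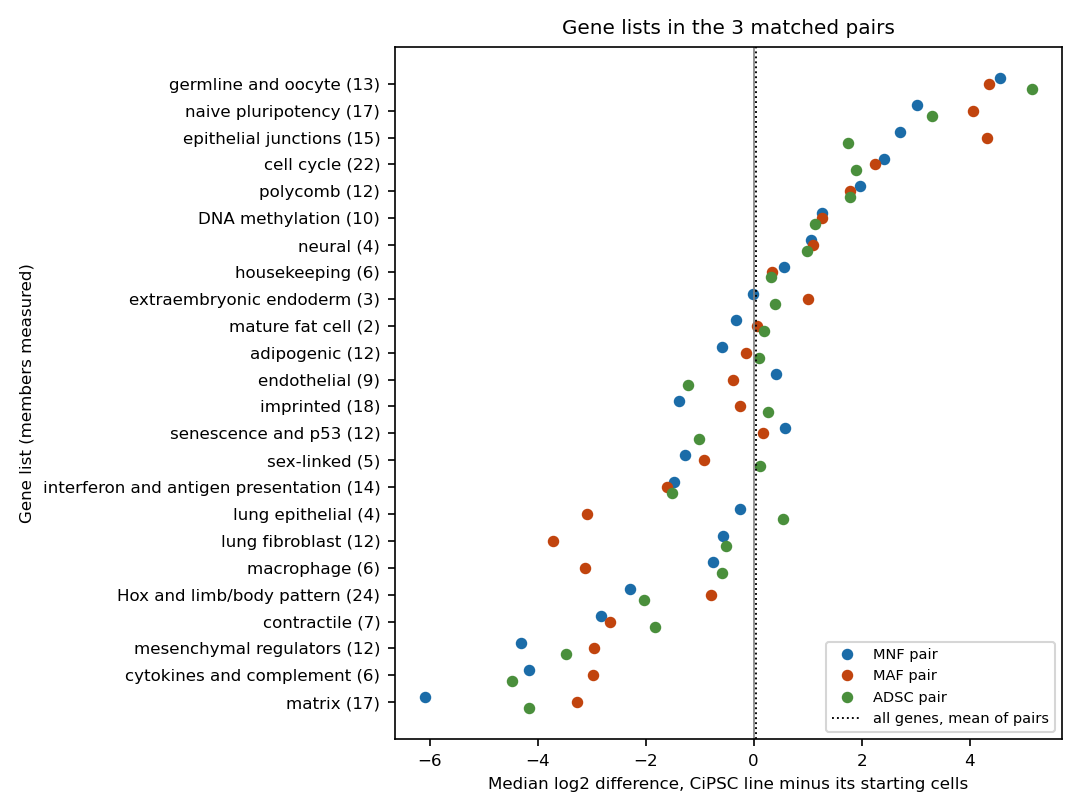
Median log2 difference (line minus its starting cells) over the measured members of each of 24 gene lists, 1 dot per pair, with the number of measured members in parentheses and the median over all genes (0.04) as a dotted line. The 3 pairs lie close together for cell cycle, polycomb and DNA methylation genes, and the MAF pair stands apart for lung epithelial, lung fibroblast and macrophage genes.

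The largest shared falls were those of Dcn, Cck, Ch25h, S100a4, Vcam1, Ifi27, Ehd2, Gpnmb, Tgfbr2 and Tmem176b. Dcn, the matrix proteoglycan decorin, read 10669, 39921 and 25295 in the starting cells and 45.8, 293 and 63.2 in the lines. It fell in each pair (-7.87 ± 0.78; adjusted p = 0.0012), and the MAF line stayed higher than the others and than ESC2 (43.8). The MAF line was also the highest of the 3 for Ch25h, a cholesterol hydroxylase (25.7, 109.8 and 69.8), Vcam1, a cell adhesion receptor (65.7, 409 and 126), and S100a4, a calcium-binding protein of motile cells (62.2, 914 and 183). The corresponding starting levels were 8056, 5939.7 and 11395, 13006, 22427 and 9959 and 17931, 17146 and 30317, and the mean differences -7.13 ± 1.28, -6.57 ± 0.95 and -6.59 ± 2.08. Ifi27, an interferon-induced gene, had the most even fall, -6.36, -6.64 and -6.67, from 19150, 14881 and 22203 to 233, 149.6 and 218. Cck, the peptide hormone cholecystokinin, fell by a mean of -7.23 ± 2.72 from starting levels that themselves differed widely, 738, 29409 and 31003. Tgfbr2, the type II receptor for TGF-beta, fell from 8001, 27491 and 9282 to 68.9, 244 and 236 (-6.32 ± 0.89, adjusted p = 0.0015). For the remaining genes Ehd2, which acts at caveolae, Gpnmb, a membrane glycoprotein, and Tmem176b, a membrane protein, the mean differences were -6.41 ± 1.32, -6.36 ± 1.06 and -6.31 ± 1.93. A second Tmem176b probe read under 100 in all 6 samples and did not follow the first. The lines were cultured on MEF, so fibroblast RNA from feeders may be in these samples; its part in the residual levels was not tested.

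Matrix genes fell in 16 of 17 cases and none rose, against 12.3% of all genes, with a list median of -4.82. Bgn, the proteoglycan biglycan, read 64933, 39774 and 23716 in the starting cells and 332, 2117 and 671 in the lines (-5.66 ± 1.75, adjusted p = 0.0038). The collagen VI chains Col6a1 and Col6a3 fell by -7.63, -4.14 and -4.33 and -9.36, -2.76 and -5.93, the MNF pair having the largest difference in both. MNF also had the highest starting levels, 52470 and 14263. Summed over the list, intensity went from 396760 to 22418 in the MNF pair, from 305870 to 28186 in the MAF pair and from 214310 to 17041 in the ADSC pair. Elastin (Eln) was the member not called, at -3.26, -0.65 and -0.43. The calls on Col6a3 and on Thy1, the surface antigen of fibroblasts, were lost without the ADSC pair. Thy1 read 42557, 12750 and 6971 before and 125, 1671 and 588 after, a mean change of -4.97 ± 2.99 (adjusted p = 0.02).

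Among mesenchymal regulators and surface antigens 9 of 12 fell (12.3% of all genes) and 1 rose (14.1% of all genes). Twist2, a basic helix-loop-helix factor of mesenchyme, fell by -6.02, -3.15 and -5.54, and S100a6, a calcium-binding protein, by -6.46, -3.0 and -3.38. For S100a6 the MAF and ADSC lines kept 6522 and 6178 while the MNF line read 590.2. Snai1, a repressor of epithelial genes, was the member that rose (1.52 ± 0.91, adjusted p = 0.041), a call lost without the MAF pair, without the ADSC pair and without the block. Prrx2, a homeobox gene of mesenchyme, did not pass the test: it differed in the MNF and MAF pairs by -3.68 and -3.44 and differed by 0.97 in the ADSC pair, where the starting cells read 250.4. Contractile genes fell in 5 of 7 cases (12.3% of all genes). Myh11, smooth muscle myosin, fell by -4.88 ± 0.41, Myl9, its light chain, by -4.13 ± 0.62, and Cald1, caldesmon, by -3.33 ± 0.58. Tpm1, tropomyosin, fell by -2.66 ± 0.76 at the brighter of its probes, while a dimmer second probe differed by 1.83, so the gene's direction depended on the probe.

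Genes of the interferon response and of antigen presentation fell in 6 of 14 cases (12.3% of all genes) and none rose. Irf7, a transcription factor of the response, read 5621, 1874 and 2295 before and 39.6, 74.9 and 68.9 after (-5.62 ± 1.34, adjusted p = 0.0025). Ifit1, a sensor of foreign RNA, and Psmb8, an immunoproteasome subunit, fell by -4.82 ± 0.84 and -4.13 ± 1.32, and B2m, the light chain of MHC class I, from 49004, 30648 and 29586 to 2756, 5100 and 5373 (-3.07 ± 0.94). Of 6 secreted inflammatory factors 4 fell (12.3% of all genes). These were the chemokines Cxcl12 (-5.48, -5.68 and -4.02), Cxcl5 (-5.73, -4.09 and -4.92) and Cxcl1 (-7.70, -1.85 and -6.38) and Serping1, an inhibitor of complement C1 (-2.82, -3.65 and -2.82). Cxcl1 read 499.9 in MAF against 4271 and 4775 in the other starting cells, and its call was lost without the MNF pair and without the ADSC pair.

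In the adipogenic list 3 of 12 members fell (12.3% of all genes), 1 rose (14.1% of all genes) and 8 did not pass the test, with a median of -0.25. Cebpb, an early adipogenic factor that stromal cells use generally, fell from 3303, 12633 and 7297 to 228, 565 and 646 (-3.95 ± 0.50, adjusted p = 0.0018), Fabp5, a fatty acid binding protein, by -3.87 ± 0.91, and Ebf1, a factor of fat precursors, by -2.34 ± 1.05. Apoe, the lipoprotein component, rose from 2286, 11779 and 590.2 to 26529, 32699 and 12458 (3.14 ± 1.50). The calls on Apoe and Ebf1 were lost without the ADSC pair, and that on Apoe also without the MNF pair and without the block. Both markers of mature fat cells, Adipoq and Plin1, read under 100 in all 3 starting populations.

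The list counts moved with the settings. Without the ADSC pair 13 of 17 naive pluripotency genes, 10 of 13 germline genes, 17 of 22 cell cycle genes and 8 of 15 junction genes rose, and 13 of 17 matrix genes and 7 of 12 mesenchymal genes fell. With values under 100 set to 100 these counts were 6, 6, 7 and 2 for the rises and 2 and 0 for the falls, in a fit that called 501 rises and 358 falls over all genes and whose prior degrees of freedom went from 3.91 to 0.569.

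The starting cells differed in genes of position. Of 24 measured Hox, Tbx and related genes 9 fell (12.3% of all genes), none rose and 15 did not pass the test, and 13 had all lines below all starting cells, which 17.6% of all genes did. Hoxa5, a gene of the lung and upper trunk, read 316, 8189 and 3444 in the starting cells and 89.3, 102 and 165 in the lines (-4.18 ± 2.26, adjusted p = 0.015), so MAF were highest and the lines alike, and the call was lost without the ADSC pair. Hoxb5 was also highest in MAF (812, 5295 and 758) and fell to 65.7, 65.8 and 128. Hoxa7 and Hoxb6 fell by -4.05 ± 0.42 and -4.03 ± 1.71. Hoxc6 was high in MNF and ADSC and low in MAF (5786, 92.2 and 11812), and the lines read 106, 171 and 126. Hoxc8 had the same pattern (1869, 72.0 and 4237 in starting cells, 69.9, 112 and 95.1 in lines), as did Hoxd8 (1584, 68.9 and 1434; 78.0, 159 and 427), for which the ADSC line stayed the highest. These 3 genes read lower in the line than in its starting cells for MNF and ADSC and higher for MAF, and did not pass the test. Tbx15, a T-box gene of skin and limb mesenchyme, read 19420 in MNF against 115 and 41.8 in MAF and ADSC, and 67.8, 179 and 73.8 in the lines. Tbx4, a T-box gene of lung and hindlimb, read 3230.3 in MAF against 81.8 and 44.9, and 57.4, 153 and 51.9 in the lines. Whatever the starting pattern, the summed intensity of the list went from 42625, 30300 and 36657 in the starting cells to 2561, 3402 and 4750.3 in the lines, against 3020 in ESC2.

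Genes of lung mesenchyme fell in 3 of 12 cases (12.3% of all genes) and in none without the block, with pair medians of -3.71 for MAF, -0.56 for MNF and -0.51 for ADSC. Itga8, an integrin of lung fibroblasts, read 381, 3624 and 146 before and 39.6, 87.0 and 23.8 after, Gdf10 343, 1624 and 132 and 49.4, 76.4 and 22.4, and Fgf10, the growth factor of lung budding, 373, 1159 and 102 and 83.1, 49.8 and 26.1. MAF were the highest starting population for all 3, and their calls were lost without the block. Inmt, a methyltransferase abundant in lung, read 10790 in MAF against 86.8 and 89.2, and differed by -5.82 in that pair alone. MAF also carried markers of cells other than fibroblasts. The surfactant genes Sftpc and Sftpb of lung epithelium read 5425 and 2158 in MAF and under 100 in MNF, ADSC and all 3 lines. Foxj1, a factor of ciliated cells, was lowest in MAF (906, 404 and 1200.4). Of the 4 measured lung epithelial markers, summed intensity was 8960.3 in MAF and 1379.5 and 1416 in MNF and ADSC. The 6 measured macrophage markers summed to 21342 in MAF against 1257 in MNF and 2740.5 in ADSC, and to between 1057 and 3496 in the lines. Fcer1g, an Fc receptor subunit, read 607, 9196 and 528, C1qc, a complement subunit, 123, 1185 and 269, and Cd14, the endotoxin co-receptor, 119.6, 4238 and 1358. Of the 6 macrophage markers 2 fell (12.3% of all genes), none rose and 4 did not pass the test. Those called were Cd14 and C1qc (-4.04 ± 2.79 and -2.33 ± 1.68), and both calls were lost without the MAF pair, without the ADSC pair and without the block. Cd68, among those not called, differed by 2.43, -1.02 and 0.28. Part of what fell in the MAF pair alone thus lay in genes of these cell types; how far they set the pair's other differences was not tested.

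**Figure D3:**
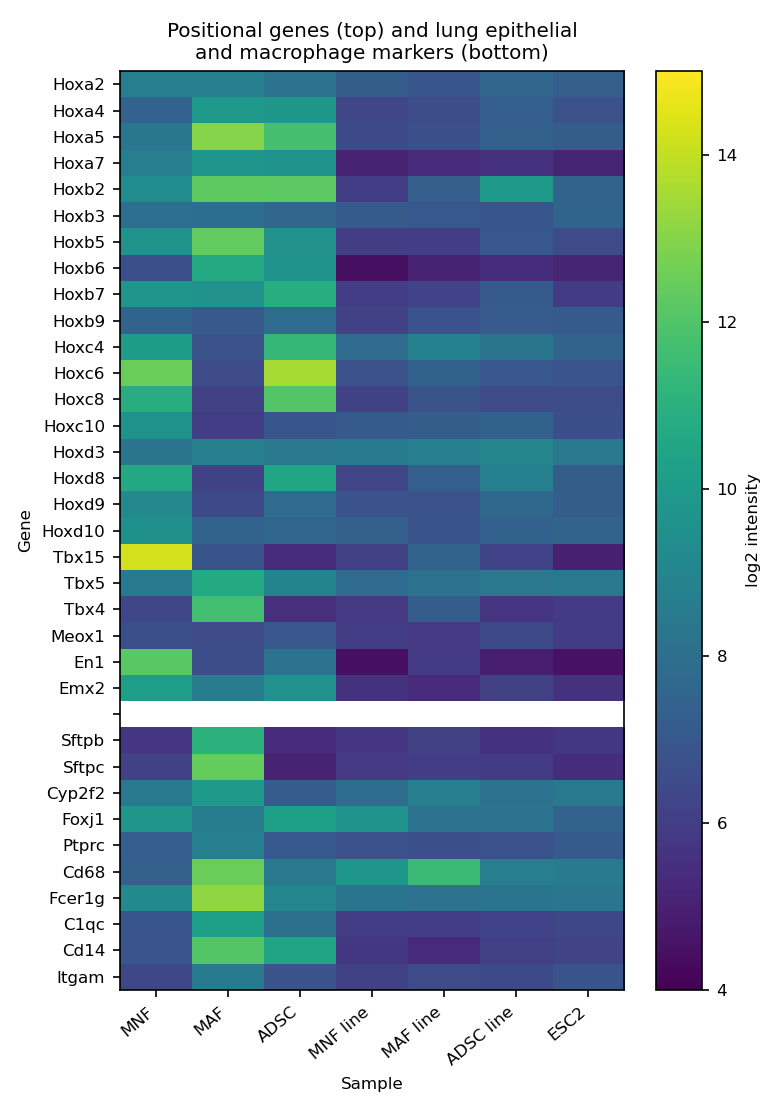
Log2 intensity (colour scale) of 24 positional genes (upper block) and of 4 lung epithelial and 6 macrophage markers (lower block) in the 3 starting populations, their lines and ESC2. The bright cells sit in the first 3 columns, for example Tbx15 in MNF, Tbx4 and Sftpc in MAF and Hoxc6 in ADSC, and the line columns resemble each other and ESC2, with Cd68 in the MAF line as a bright exception.

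Taken pair by pair, with 1 sample a side and no test, 2800 genes (19.8%) were at least 2-fold higher and 2546 (18%) at least 2-fold lower in the MNF line than in MNF. In the MAF pair these were 3128 (22.2%) and 2805 (19.9%), and in the ADSC pair 2507 (17.8%) and 2419 (17.1%). The change was at least 2-fold upward in all 3 pairs for 1336 genes (9.47%) and downward for 1233 (8.74%). These were 29.5 and 28.9% of the genes that moved that far in that direction in at least 1 pair. In 340 genes (2.41%) at least 1 pair rose and another fell by 2-fold.

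A pair's change was counted as specific where it was at least 2-fold and exceeded the nearest of the other pairs by another 2-fold. By this measure 340 genes were specific to the MNF pair upward and 556 downward, 436 and 801 to the MAF pair, and 280 and 361 to the ADSC pair. The excess over the mean of both other pairs was split into a part from the starting cells and a part from the lines. The starting cells held the larger part in 81.5% of the MNF-specific falls and 65.6% of the MNF-specific rises, in 62.4 and 51.6% for MAF and in 53.7 and 43.2% for ADSC. A second probe, where there was one, exceeded the nearest other pair by at least 2-fold the same way in 70 of 215 pair-specific cases (32.6%). For shared changes the measure was another, the mean difference of the second probe. It was at least 2-fold the same way in 78 of 191 shared rises (40.8%) and 90 of 141 shared falls (63.8%). As the measures differ, these shares do not rank pair-specific changes against shared ones. In most pair-specific cases the second probe did not repeat the 2-fold excess, so such a change seen with a single probe is uncertain.

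The MNF-specific falls were led by genes high in MNF alone. Irx1, an Iroquois homeobox gene, read 13728, 250.4 and 174 in the starting cells and 43.3, 155 and 158 in the lines. Krt14, the keratin of basal epidermis, read 55217, 455 and 532 and 462, 743 and 1021, and Col8a2, a short-chain collagen, 5303, 93.2 and 67.7 and 86.3, 169 and 112. For these genes and for Tbx15 the 3 lines lay much closer together than the starting cells. The leading MNF-specific rises were genes low in MNF: Upp1, the uridine phosphorylase, read 57.4, 5073 and 836 in the starting cells and 26076, 31850 and 13924 in the lines, and Chst9, a sulfotransferase, 89.2, 1387 and 1759 and 3819, 1731 and 1284. At the brighter of its probes Upp1 rose in every pair (8.83, 2.65 and 4.06; adjusted p = 0.022), a call lost without the ADSC pair and without the block. A dimmer second Upp1 probe read 32.1, 104 and 53.7 in the starting cells and 417, 82.0 and 1429 in the lines. By that probe Upp1 did not rise in the MAF pair and rose most in the ADSC pair, so its place among MNF-specific rises depended on the probe. Snrnp70, a U1 spliceosomal protein, differed by 1.64, -5.59 and -3.0 and Abcb1a, an efflux pump, by 2.90, -1.70 and -1.76; in the lines they read 411, 32.7 and 78.2 and 124, 77.7 and 91.1.

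Of the leading MAF-specific rises, those of Defb45, Cabyr and Olfr361 lay in the line and that of Itga11 mostly in the starting cells. Defb45, a defensin gene, read 28.2, 37.4 and 63.4 in the starting cells and 44.6, 14309 and 69.8 in the lines. Only the MAF line of the 3 was high, and among the references CiPS45 (11768) and OSKM iPS2 (19150) were high as well, while ESC2 read 30.2. Cabyr, a calcium-binding protein of sperm, showed the same samples high: 5445 in the MAF line, 3789.5 in CiPS45 and 3604 in OSKM iPS2, against 27.7 in ESC2. Its second probe read under 100 in all 9 samples of the set. Olfr361, an olfactory receptor gene, read 27.1, 1380.2 and 23.8 in the lines and 1633 in ESC2. Itga11, a collagen-binding integrin, was higher in the line in the MAF pair (1.10) and lower in the others (-8.19 and -4.77). Among the MAF-specific falls stood 2 genes that most cells express. Eif5a, a translation factor, read 892, 16573 and 21486 in the starting cells and 2438, 58.4 and 35425 in the lines, and Ppp2r1a, the scaffold of protein phosphatase 2A, 600, 8029.6 and 5378 and 1385, 303 and 15235. Both were lower in the MAF line, in MNF, in the MNF line and in OSKM iPS2 (5002 and 3207) than in ADSC, its line, CiPS45 and ESC2 (35632 and 17103 in ESC2). A second Eif5a probe gave nearly the same values in each sample, 27.7 in the MAF line among them. Snora16a, a small nucleolar RNA, read 4132 in MAF and 46.9, 27.7 and 71.8 in the lines.

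In the ADSC pair the leading specific rises included genes that read lower in ADSC than in MNF and MAF. Sfrp2, a secreted Wnt antagonist, read 9749, 12228 and 141 in the starting cells and 407, 1641 and 1228 in the lines, and Tgfbi, a matrix adhesion protein, 15340, 8959 and 326 and 679, 743 and 1529.7. Both lines from MNF and MAF thus read lower than their starting cells, and the ADSC line read higher. Inhba, the activin A subunit, was high in ADSC (73.7, 295 and 5529) and low in all lines (31.1, 44.9 and 33.9). Cap1, an actin-binding protein, read 4119, 5685 and 7789.5 in starting cells and 3659.7, 4537 and 132 in lines, low in the ADSC line alone. Baiap2l1, another actin regulator, and the long non-coding RNA gene A930015D03Rik were also low in the ADSC line, 1214, 2670.4 and 184 and 627, 1045 and 141, and rose in the other pairs.

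**Figure D4:**
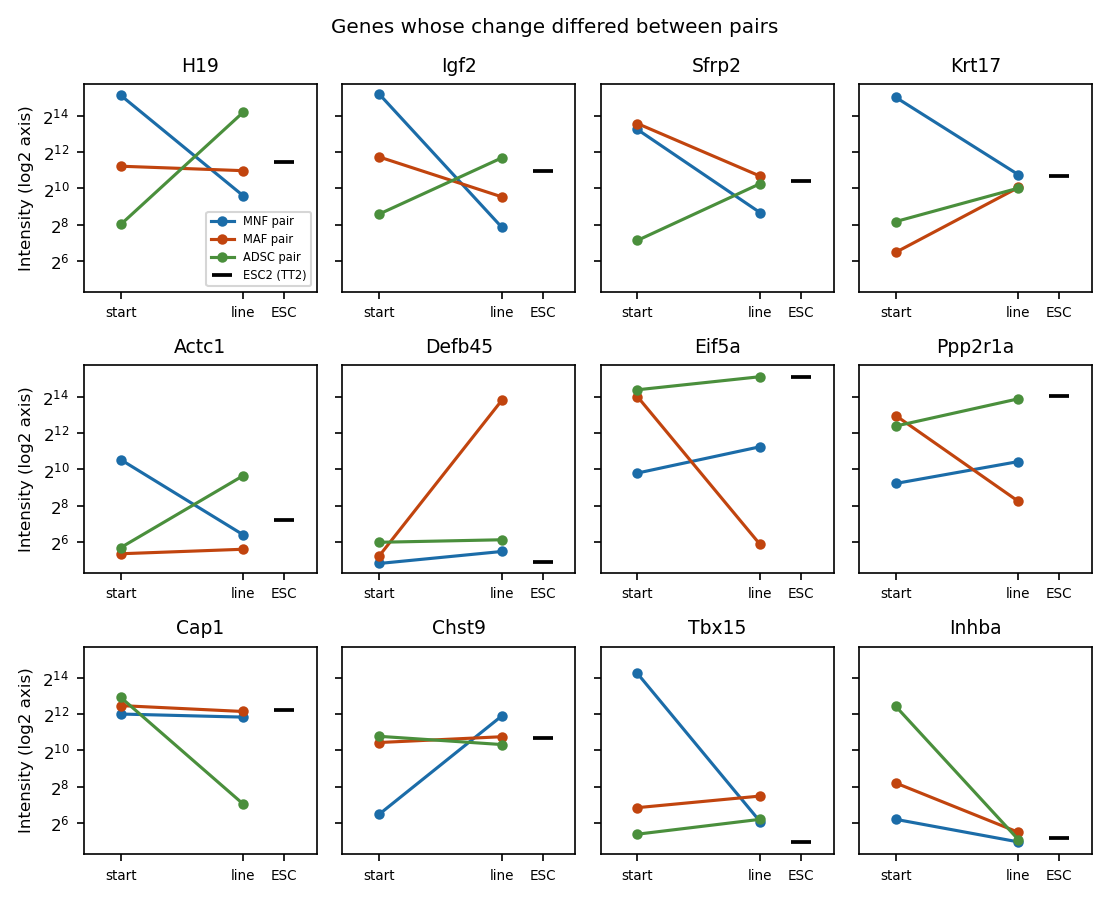
Intensity (log2 axis) in the starting cells and the derived line of each pair, joined by a line, with a bar for ESC2, for 12 genes whose change differed between pairs. For Sfrp2, Krt17, Tbx15 and Inhba the starting cells differ and the lines come together, for Defb45 and Cap1 a single line stands apart, and for Eif5a all 3 lines lie far from each other.

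Krt17 and Actc1 also differed in opposite directions between pairs. Krt17, a keratin of skin appendages, read 33299, 89.3 and 289 in the starting cells and 1733, 1063 and 1038 in the lines, so the pairs met at a common level. Actc1, cardiac actin, read 1489.8, 40.9 and 51.7 in the starting cells and 84.0, 48.6 and 811 in the lines, high in MNF before and in the ADSC line after.

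Imprinted genes, expressed from a single parental copy, differed between pairs in a few cases by a wide margin. Of 18 members 1 rose, 3 fell and 14 did not pass the test, shares near or below the 14.1 and 12.3% of all genes. The growth factor gene Igf2 read 37917, 3417 and 384 in the starting cells and 233, 744 and 3293 in the lines, and its neighbour H19, a non-coding RNA, 35987, 2396 and 259 and 771, 2020.2 and 18943. The order of the 3 samples was MNF, MAF, ADSC from high to low in the starting cells and the reverse in the lines, for both genes. The differences were -7.34, -2.20 and 3.10 for Igf2 and -5.55, -0.25 and 6.20 for H19, with ESC2 at 2006 and 2861. Mest, a hydrolase gene, was lower in the line in the MNF pair and higher in the others (-1.64, 3.14 and 4.32). Phlda2, which restrains placental growth, rose from 91.2, 81.6 and 109 to 998, 8959 and 4958 (5.25 ± 1.68, adjusted p = 0.0042). Grb10, an adaptor of growth factor receptors, and Ndn, the MAGE family gene necdin, fell by -3.08 ± 0.94 and -2.51 ± 0.83. Meg3 read 79.0, 65.8 and 83.2 in the lines and 87.5 in ESC2, and its partner Dlk1 93.0, 113 and 389, neither passing the test.

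Cell cycle inhibitors and p53 targets had 1 of 12 members risen, 2 fallen and 9 not called, near the shares of all genes (14.1 and 12.3%). Cdkn2b, the inhibitor p15, fell by -2.43 ± 0.21 (adjusted p = 0.0038) and Cdkn1b, the inhibitor p27, by -1.57 ± 0.87, a call lost without the MAF pair, the ADSC pair or the block. Gadd45b, a stress-induced regulator, rose by 2.99 ± 0.81. Cdkn1a, the p53 target p21, read 9065, 17510 and 15058 in starting cells and 13229, 20051 and 4178 in lines, and Ccng1, the p53 target cyclin G1, 6769.6, 15502 and 12358 and 15872, 17603 and 748. In both the ADSC line was the lowest sample, and the differences were 0.55, 0.20 and -1.85 and 1.23, 0.18 and -4.05.

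Of 5 measured sex-linked genes 2 fell (12.3% of all genes), none rose and 3 did not pass the test. Those called lower were the Y-linked Uty and Kdm5d, both histone demethylase genes. Usp9y, also Y-linked, read 42.7, 25.3 and 20.7 before and 27.1, 31.2 and 28.7 after and was not called, with all values under 100. Uty read 573, 609.7 and 776 before and 84.0, 98.1 and 125 after (-2.68 ± 0.08, adjusted p = 0.0029), against 345 in CiPS45 and 134 in ESC2. Kdm5d read 176, 315 and 220.2 and 56.3, 60.6 and 143, and its call was lost without the MNF pair, without the MAF pair and without the block. In other sets MEF-derived CiPSC were compared with the MEF of the same set, with no test. There Uty was higher in the CiPSC, by 0.46 in the third set and 1.22 in the fifth. Kdm5d differed by -2.89 in the first set, -0.11 in the third and -0.55 in the fifth. Xist, the RNA of the inactive X chromosome, read 171, 110.3 and 72.0 and 70.9, 58.4 and 78.2 and did not pass the test. The labels do not state the sex of the animals.

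By the spread per gene the lines were more alike than the cells they came from. The median SD per gene over the 3 samples was 0.49 among starting cells and 0.43 among lines on the log2 scale. A range of at least 4-fold was found for 2140 genes among starting cells and 1252 among lines, and of at least 16-fold for 238 and 68. MNF stood apart among the starting cells, correlating with MAF and ADSC at 0.872 across genes. MAF and ADSC correlated with each other at 0.937, within the range of the lines among themselves (0.913 to 0.938).

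Genes that set a starting population apart were then followed into its line. Of 256 genes at least 4-fold higher in MNF than in MAF and ADSC, 75 (29.3%) were at least 2-fold higher in the MNF line than in both other lines, against 5.79% of all genes. In the ADSC pair this was so for 19 of 74 genes (25.7%, all genes 4.75%) and in the MAF pair for 12 of 180 (6.67%, all genes 2.00%). In the lines of other origin the share ran from 1.35% to 7.22%, the highest being that of MAF-high genes in the ADSC line (13 of 180, all genes 4.75%), 1 gene more than in the MAF line itself. Of 481 genes at least 4-fold lower in MNF, 253 (52.6%) were at least 2-fold lower in the MNF line, against 5.56% of all genes. For ADSC-low genes it was 22 of 79 (27.8%, all genes 5.28%) and for MAF-low genes 4 of 49 (8.16%, all genes 2.82%). The deviation of each gene from the mean of its state gave the same order across all genes: the correlation of starting cells with their own line was 0.53 for MNF, 0.40 for ADSC and 0.14 for MAF, a description over genes of the same 6 samples, where deviations of 3 samples sum to 0. The ADSC line correlated with ADSC at 0.40 and with MAF, the cells its source label names, at 0.18, which was above the 0.14 of MAF with the MAF line. Samples not made from ADSC shared part of the low ADSC pattern. At least 2-fold below the MNF and MAF lines were 20.3% of the ADSC-low genes in ESC2, 16.5% in CiPS45 and 15.2% in OSKM iPS2. Over all genes these shares were 4.18, 4.12 and 2.82%. For ADSC-high genes the shares 2-fold above those lines were 8.11, 8.11 and 9.46%, and over all genes 3.29, 4.25 and 3.02%.

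**Figure D5:**
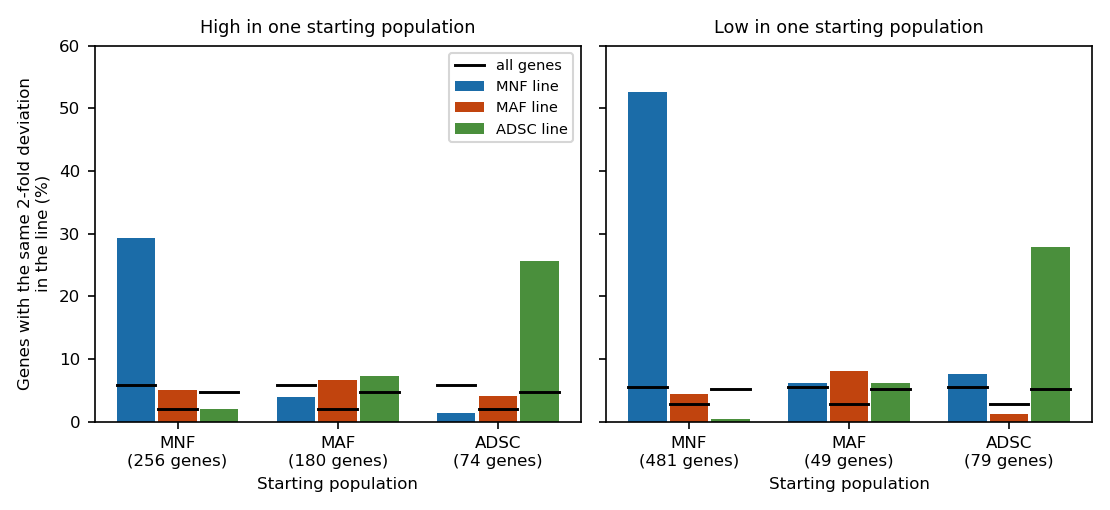
Percentage of genes at least 4-fold higher (left) or lower (right) in 1 starting population than in both others that deviated at least 2-fold the same way in each CiPSC line (bars), with the percentage over all genes for the same line as a black mark. The bar of the own line stands at 29.3 and 52.6% for MNF and at 25.7 and 27.8% for ADSC, and at 6.67 and 8.16% for MAF.

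The genes kept high in the MNF line included Tnni3, cardiac troponin I (434, 61.4 and 20.7 in starting cells, 1708, 107 and 203 in lines), Tyms, thymidylate synthase (509, 95.2 and 97.2; 1121, 131 and 83.2), Dennd6b, a Rab exchange factor (426, 84.3 and 67.7; 1292, 174 and 256), and Leng8 (2763, 350.4 and 333; 3307, 537 and 674). In each the MNF line stood several-fold above the other lines and above ESC2, which read 114, 126, 289.9 and 645. For ADSC they were Krt8, a keratin of simple epithelia (254, 681 and 4569; 558, 1455 and 8986), Gmps, the GMP synthase (161, 1167 and 7935; 1843, 1873 and 11157), the small nucleolar RNA Snora81 (66.6, 76.5 and 1829; 224, 146 and 2235) and Serpinb9b, a protease inhibitor (93.8, 264 and 2204; 72.1, 99.4 and 591). The MEF-derived CiPS45 also lay above the MNF and MAF lines for Krt8 (3956), Gmps (6803) and Serpinb9b (254), and between them for Snora81 (194). In the same order ESC2 read 1547, 1491, 132 and 424. For MAF the kept genes were Cd68, a lysosomal glycoprotein of macrophages (167, 5919 and 341; 896, 2919 and 414), Fst, the activin antagonist follistatin (279, 10174 and 1122; 24.7, 95.5 and 25.5), Adm, the peptide adrenomedullin (2139.5, 13487 and 501; 236, 679 and 139), and Dll1, a Notch ligand (66.6, 303 and 58.5; 96.0, 395 and 135). OSKM iPS2, made from MEF, read 569, 270, 677 and 132 for these genes, above the MAF line for Fst and level with it for Adm. Fst in the MAF line was at 95.5, so the 2-fold excess there lay among values at or under 100.

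The genes low in MNF and in its line were also low in a sample of another origin. OSKM iPS2, made from MEF, lay at least 2-fold below the MAF and ADSC lines for 143 of the 481 MNF-low genes (29.7%, all genes 3.86%), against 3.12% for CiPS45 and 2.08% for ESC2. Of the 253 genes low in the MNF line, 113 were low in OSKM iPS2 too. Their median intensity was 197.9 in MNF, 333 in the MNF line and 542 in OSKM iPS2, and between 1282 and 1778 in MAF, ADSC, their lines, CiPS45 and ESC2. A sample pattern that runs across origins thus accompanied the MNF-low genes, and its part in their retention was not tested. A second MNF-derived line, MNF CiPS7, belonged to the first set, made with VC6TFS+Z and without an MNF sample beside it. Of 234 MNF-high genes measured there, 2 were at least 2-fold above the mean of the MEF-derived lines (0.855%, all genes 0.974%). Those at least 2-fold below it numbered 26 (11.1%), a larger share than over all genes (2.20%). Of the 72 genes kept high in MNF CiPS1 and measured in that set, none was 2-fold higher in MNF CiPS7 and 9 were 2-fold lower (12.5%). Of 216 MNF-low genes measured there, 3 were at least 2-fold lower in MNF CiPS7 (1.39%, all genes 2.20%) and 4 were higher, and none of the 94 kept low in MNF CiPS1 was 2-fold lower. Those 216 are part of the 481 MNF-low genes, and the comparison there was with MEF-derived lines, not with MAF and ADSC lines.

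Against ESC2, a sample the pairing did not use, the lines differed in how closely the shared changes matched. Of the 1985 shared rises, 330 (16.6%) were at least 2-fold below ESC2 in the MNF line, 113 (5.69%) in the MAF line and 94 (4.74%) in the ADSC line, where over all genes these shares were 11.2, 6.20 and 2.88%. Shared rises at least 2-fold above ESC2 numbered 365 (18.4%), 229 (11.5%) and 108 (5.44%), so both sides were filled, with medians of 0.02, 0.12 and -0.09 against ESC2. Of the 1742 shared falls, 377 (21.6%), 293 (16.8%) and 223 (12.8%) were 2-fold above ESC2, and over all genes 14.5, 8.77 and 5.17%, while 124 (7.12%), 88 (5.05%) and 30 (1.72%) were 2-fold below. The MNF line thus stood farthest from ESC2 in both directions. OSKM iPS2 was 2-fold below ESC2 in 14.4% of the shared rises (all genes 8.62%) and 2-fold above in 22.0% of the shared falls (all genes 9.03%).

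The shared changes were followed in MEF-derived CiPSC of 3 other sets, which have no sample in common with the pairs. In the first set, with 3 lines, 67.2% of the shared rises measured there were at least 2-fold higher than in the MEF of that set, against 17.3% of all genes, and 76.6% of the shared falls were 2-fold lower, against 16.5%. In the third set, with 2 lines, the shares were 72.3% (18.3% of all genes) and 69.9% (16.6%). In the fifth set, with 1 line, they were 54.1% (28.8%) and 52.4% (35.4%). In that set 227 shared rises and 318 shared falls differed at least 2-fold in the opposite direction, against 3 to 15 in the others. Of the 10 largest rises and 10 largest falls, Fbxo15 (-0.87), Misp3 (-5.28), Cck (3.46) and Gpnmb (1.36) had the opposite sign in the fifth set and Cck (1.40) also in the third set. Each set was normalized separately, and the differences were taken within sets with no test.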

How the data were processed

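Cy5-labelled RNA was read on a 1-colour oligonucleotide array (Phalanx Mouse OneArray v2), per the labels. The values are intensity on a linear scale, deposited by the authors as 1 column per sample and normalized within 5 sets, per the design text. Scanner, background correction and probe filter are not named in the labels or the table.

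Of 15437 probes, 14836 carried 1 gene, 601 none and 0 several, and 14818 gene IDs matched RefSeq (GRCm38.p6). The probe with the highest mean stood for each of 1222 genes with several. Differences of log2 intensity, computed here from the deposited values, were fitted with limma 3.58.1 (R 4.3.3) with origin as block, using 6 samples, 2 residual and 3.91 prior degrees of freedom. A gene was called at a Benjamini-Hochberg adjusted p under 0.05 (over 14112) with at least 2-fold change. The pairing comes from the origins in the labels. Deviations of starting cells and own line correlated at 0.53, 0.14 and 0.40 across genes. A simulation of 14112 genes gave 100 of them a log2 shift of 2 and another 100 a shift of 5. The fit called 39% of the smaller and 97% of the larger shifts, with 5 false calls. At an unadjusted limma p under 0.05 it found 95 and 100%. The adjusted p depends on the share of genes that differ, and in the real data 26.4% were called. The simulated recovery and false calls therefore do not measure those of the real fit.

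Genes were named by rule: the 10 largest called changes each way, 4 per pair and direction with the largest gap to the other pairs, up to 4 members per list and those whose direction varied, 4 kept genes per origin, 4 opposite genes and a fixed set around Pou5f1, Thy1, Meg3 and Xist; not all such members are named. The pairs, 24 gene lists and rules were chosen with earlier results of these data known. Alternatives covered block, pairs, normalization, low values, probes and thresholds. The number of pairs and arrays limits precision; no read depth applies to arrays.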

Additional observations from a re-analysis of the deposited data

Results flagged for a closer look

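For 19 genes named in the text the pairs moved at least 2-fold in opposite directions, which stands out because each pair is the same contrast in cells of another origin. Each pair has 1 sample a side, so these differences between pairs were not tested. The largest gaps between the highest and the lowest log2 difference were 11.74 for H19 and 10.44 for Igf2. The gap was 9.60 for Eif5a, 9.29 for Itga11, 8.12 for Actc1, 7.87 for Cabyr, 7.84 for Krt17, 7.71 for Sfrp2 and 7.23 for Snrnp70. It was 6.73 for Tgfbi, 6.23 for Ppp2r1a, 5.96 for Mest, 5.55 for Hoxd8, 5.34 for Baiap2l1 and 5.28 for Ccng1. The smallest gaps were 4.85 for A930015D03Rik, 4.66 for Abcb1a, 3.45 for Cd68 and 2.30 for Mki67, whose direction in the MAF pair depended on the probe. In Cabyr the MAF line stood apart, while in Krt17 and Sfrp2 the starting cells lay farther apart than the lines.

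OSKM iPS2, a sample outside the pairs, was at least 2-fold below the MAF and ADSC lines for 29.7% of the genes that were low in MNF, against 3.86% of all genes.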

How the results depend on the processing

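The origin served as a block for the pairing, and without this block 1177 genes rose and 1065 fell, the same counts as with all 9 samples of the set in an unpaired fit (1177 and 1065). Leaving out the MNF, MAF or ADSC pair gave 1124, 1297 and 1021 rises and 1172, 1237 and 931 falls, in fits with 4 samples. With values under 100 set to 100 there were 501 and 358, where many genes sit at the floor and the prior degrees of freedom went from 3.91 to 0.569. A 4-fold minimum gave 779 and 871, and per pair 1006 rises and 1029 falls for MNF, 1092 and 1330 for MAF, 839 and 973 for ADSC and 419 and 441 in all 3 pairs. Median centring, quantile normalization, an offset of 38.5, leaving out the lowest 25% of genes, the mean of all probes, a variance trend and the adjusted p alone kept both counts within 1.5 times, at 1797 to 2013 rises and 1512 to 1782 falls. Of 92 called genes named in the text, 19 lost their call without the block, 10 without the MNF pair, 11 without the MAF pair, 20 without the ADSC pair and 54 with the floor at 100, and no called gene turned its direction in any of these fits.

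Of genes at least 2-fold rather than 4-fold higher in a starting population, 23.3% stayed high in the MNF line and 16.1% in the ADSC line. Counting any difference in the same direction in other sets gave 96.2 and 96.4% (rises and falls) in the first set, 93.8 and 95.0% in the third and 74.4 and 69.3% in the fifth, where all genes gave 44.6 to 55.3%. The limits are set by 3 pairs of different origin, by averaged arrays and by low intensities.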

Other observations

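A few markers of other lineages moved as well. Of 4 neural markers 2 rose (14.1% of all genes) and 1 fell (12.3% of all genes). Stmn2, a stathmin best known from neurons, read 155, 122 and 108 in the starting cells and 2445, 4157 and 2482 in the lines (4.53 ± 0.55 on the log2 scale, SD, n = 3 pairs; limma adjusted p = 0.0016), against 3973 in ESC2. Nes, the intermediate filament nestin, which stromal cells also express, was the one that fell (1036, 1008 and 2019; 565, 330.3 and 496; -1.50 ± 0.58, adjusted p = 0.023), a call lost without the MAF pair and without the ADSC pair. Of 3 measured markers of extraembryonic endoderm 1 fell (12.3% of all genes) and none rose. It was Gata6, which lung and stromal cells also express, from 1288, 7052 and 4500 to 537, 587 and 640 (-2.55 ± 1.18), a call lost without the ADSC pair. The other members, Sox17 and Gata4, differed by 0.43, 1.74 and 0.40 and by -0.01, 1.00 and 0.46 and did not pass the test. Of 9 endothelial markers 1 rose and 1 fell, near the 14.1 and 12.3% of all genes. Pecam1, an adhesion molecule of endothelium and of naive stem cells, rose by 1.62 ± 0.60, a call lost without the MNF pair and without the ADSC pair. Vwf, the von Willebrand factor, read 3839.8, 556 and 95.1 in the lines, high in the MNF line alone, against 184, 285 and 57.4 in the starting cells. Cdh5, endothelial cadherin, read 1938 in ADSC against 128 and 346 in MNF and MAF, and 170.2, 174 and 136 in the lines.

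Of 6 reference genes, Actb, cytoplasmic actin, was called lower (-1.83 ± 1.26, adjusted p = 0.043) and the other 5 were not called. Over all genes 12.3% were called lower. Actb read 43483, 48472 and 44530 in the starting cells and 15980, 5147 and 25402 in the lines, the MAF line being the lowest, and its call was lost without any 1 of the pairs and without the block.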
